A study of Mus musculus with 24 samples.

Results

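The circadian clock genes were followed through fat cell differentiation in culture. The set held 10 genes chosen by name, Arntl, Clock, Npas2, Nr1d1, Nr1d2, Per1, Per2, Per3, Cry1 and Dbp, out of 37310 genes in the expression tables. The rule uses names alone and no measured value, but the members were chosen with earlier results of these data known. All 10 passed the filter on low values (an FPKM, the fragment count scaled by transcript length and library size, of at least 1 in at least 2 of 16 libraries), as did 14095 genes in all.

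The cells were stromal vascular fraction cells, the mixed non-fat cells left after collagenase digestion of adipose tissue, from the inguinal white depot (WAT) or the interscapular brown depot (BAT) of 6-week-old C57BL/6 mice. Every culture received the same hormone medium, with insulin, dexamethasone and 3-isobutyl-methylxanthine for 4 days, and then a second medium with insulin and triiodothyronine up to day 8. Cells were given epigallocatechin gallate (EGCG), the main catechin of green tea, or the solvent DMSO, labelled control. RNA was collected on day 4 or day 8, which makes 8 groups of 3 libraries each. No dose of EGCG, hour of collection or number of mice per culture is given in the sources used here, and nothing says that replicates came from separate isolations, so the p-values measure the spread between these libraries only. Replicates 1 and 2 stood in 1 table and carried every main test. Replicate 3 stood in a second, separately scaled table and was used for direction and in alternative fits. In the labels all cells are called preadipocytes, but by day 8 the control cells carried adipocyte transcripts at high levels.

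The mammalian clock is a feedback loop of transcription. BMAL1, encoded by Arntl, pairs with CLOCK or its relative NPAS2 and activates the genes Per1, Per2, Per3, Cry1, Nr1d1, Nr1d2 and Dbp through E-box sequences. PER and CRY proteins then block their own activators, while the nuclear receptors REV-ERBα (Nr1d1) and REV-ERBβ (Nr1d2) repress Arntl. DBP, a PAR bZIP factor, carries the rhythm to output genes through D-box sequences. Glucocorticoids such as dexamethasone induce Per1 and can set the phase of cultured cells, and REV-ERBα is known to act in fat cell differentiation.

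The upstream sequences of 5 members are shown as a description, and these members were picked with the responses below known. Each sequence is the 250 bases before an annotated RefSeq start (GRCm38.p6), written 5′ to 3′ on the gene's strand. The 5 hold different clock elements or, for Dbp, none of those searched. Bases outside these 250 were not searched, and a link between the elements and the responses was not tested. Capitals mark the letters CACGTG (E-box), CACGTT or its reverse complement AACGTG (E′-box) and TTATGTAA (D-box).
Per3, chr4:151044666-151044915, minus strand, with a pair of D-boxes at -205 to -198 and -158 to -151 from the start: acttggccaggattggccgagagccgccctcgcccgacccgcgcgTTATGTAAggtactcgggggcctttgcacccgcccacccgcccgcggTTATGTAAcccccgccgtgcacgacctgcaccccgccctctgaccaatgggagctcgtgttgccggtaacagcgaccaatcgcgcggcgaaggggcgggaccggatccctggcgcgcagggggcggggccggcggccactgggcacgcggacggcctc
Cry1, chr10:85185055-85185304, minus strand, with an E′-box at -79 to -74 and an E-box at -60 to -55: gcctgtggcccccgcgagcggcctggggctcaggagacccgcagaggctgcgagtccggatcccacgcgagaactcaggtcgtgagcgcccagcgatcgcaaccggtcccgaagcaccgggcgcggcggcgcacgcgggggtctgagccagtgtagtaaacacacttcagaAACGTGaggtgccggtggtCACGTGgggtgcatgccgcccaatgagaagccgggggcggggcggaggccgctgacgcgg
Per1, chr11:69098699-69098948, plus strand, with an E-box at -166 to -161: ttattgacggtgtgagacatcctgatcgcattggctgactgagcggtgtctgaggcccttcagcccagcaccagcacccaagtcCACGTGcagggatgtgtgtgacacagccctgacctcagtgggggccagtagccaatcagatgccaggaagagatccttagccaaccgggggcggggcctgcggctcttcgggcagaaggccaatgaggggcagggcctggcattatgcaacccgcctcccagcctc
Nr1d1, chr11:98775378-98775627, minus strand, with an E′-box at -28 to -23: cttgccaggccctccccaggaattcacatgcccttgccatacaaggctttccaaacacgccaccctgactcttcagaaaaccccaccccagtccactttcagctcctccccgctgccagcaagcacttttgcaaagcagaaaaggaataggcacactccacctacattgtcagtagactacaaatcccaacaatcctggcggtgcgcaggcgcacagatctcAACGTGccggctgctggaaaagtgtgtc
Dbp, chr7:45704997-45705246, plus strand, with none of the motifs searched: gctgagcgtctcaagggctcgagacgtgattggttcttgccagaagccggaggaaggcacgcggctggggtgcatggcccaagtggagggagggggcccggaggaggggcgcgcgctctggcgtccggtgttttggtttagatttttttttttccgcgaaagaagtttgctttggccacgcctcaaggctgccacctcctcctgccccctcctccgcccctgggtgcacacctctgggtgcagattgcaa
Of the 10 members, 9 had at least 1 promoter entry, with 13 entries in all, and Per2 had none. Both strands were searched for the E-box, the E′-box, the D-box, the cAMP response element TGACGTCA and, by name, the ROR response element, to which REV-ERB proteins bind. Among 32851 mouse promoters of the same length, 6.02% held an E-box, 3.85% an E′-box, 0.819% a D-box, 1.55% a cAMP response element and 0.332% a ROR response element. An E-box stood in entries of 2 members, and 5 of the 9 members had none of these letters in any entry. Per1 had a further entry, chr11:69099902-69100151, not shown, which held none of these letters. A match is a description of the letters only.

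Depth was high enough for all members. The 16 tested libraries held 39452696 to 52893848 reads assigned to genes and the 8 libraries of replicate 3 held 16392420 to 41675643, as recovered from the FPKM steps. The fewest reads behind any member's value were 79 in the tested libraries (Dbp, WAT day 4 EGCG, replicate 1) and 51 in all 24 (Dbp, WAT day 4 control, replicate 3). In 1 library, the third of WAT day 8 EGCG, 5 genes took 61.0% of the reads, against 3.64% to 10.5% in the other 23, so its FPKM of every other gene are lowered. Its values are given as deposited, and again after multiplication by 2.66, the median-ratio factor over 13113 genes. By Zic1 and Hoxc10 the depot labels held. Zic1, a brown depot marker, was at 3.57 to 11.1 FPKM in tested BAT libraries and at most 0.154 in WAT. Hoxc10, an inguinal marker, was at 6.28 to 12.5 in WAT and at most 0.0582 in BAT. Hoxc9 was at 2.59 or more in WAT and at most 1.003 in BAT. Across groups other markers overlapped. Lhx8 (brown) was at 17.4 to 19.3 in WAT day 4 controls and 10.2 to 10.3 in BAT day 8 controls. Hoxc8 (white) was at 8.25 to 8.99 in BAT day 8 EGCG cells and 5.92 to 6.25 in WAT day 4 EGCG cells. Prdm16 (brown) also overlapped. Within each day and condition Lhx8, Hoxc8 and Prdm16 still separated the depots in the tested libraries. Tcf21, a further white marker, was near 0 in both depots, and Ucp1, the brown fat uncoupling protein, was above 1 FPKM only in BAT day 8 controls (6.15 to 6.97).

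The cell mixture moved with the groups compared. Summed over 12 markers of mature adipocytes, the level was 3881 to 4283 FPKM in WAT day 4 controls and 6563 to 7455 in WAT day 8 controls, against 1129 to 1180 and 667 to 729 with EGCG. In BAT the sums were 6647 to 7717 and 12167 to 12257 in controls on days 4 and 8, against 1628 to 1696 and 503 to 514 with EGCG. All 12 markers fell with EGCG in each of the 4 comparisons, and none was at 0. The sum of 7 macrophage markers was 68.6 to 73.5 in WAT day 4 controls against 183 to 187 with EGCG, 101 to 117 against 55.7 to 58.9 on WAT day 8, 154 to 164 against 346 to 386 on BAT day 4 and 104 to 107 against 57.5 to 58.3 on BAT day 8. The sum of 6 endothelial markers was 11.1 to 21.7 over the control groups and 29.0 to 38.8 with EGCG. Markers of skeletal muscle, 6 genes, summed to 17.1 to 68.5 in controls and 20.0 to 116 with EGCG. None of the markers of these lists was at 0 throughout a group. The part of these mixtures in the clock gene results was not tested. In bulk RNA, fewer cells of a type and less RNA per cell cannot be told apart.

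Among the activators, Arntl (chr7:120350979-120457636 on NCBIM37/mm9, plus strand) encodes BMAL1, the partner shared by CLOCK and NPAS2. In WAT controls Arntl was at 14.3, 14.7 and 11.8 FPKM on day 4 (replicates 1, 2 and 3, as in all lists below) and at 15.04, 13.3 and 11.9 on day 8. In WAT cells with EGCG it was at 14.1, 14.5 and 13.7 on day 4 and 19.0, 16.3 and 7.01 on day 8, the last value being 18.6 after rescaling. In BAT controls it was at 11.8, 12.1 and 10.3 on day 4 and 8.65, 9.07 and 8.03 on day 8. In BAT cells with EGCG it was at 15.7, 13.8 and 14.1 on day 4 and 18.5, 16.5 and 17.0 on day 8. BAT day 8 controls were the lowest of the 8 groups in every replicate except replicate 3, where the unrescaled WAT day 8 EGCG library was lower. Among the tested libraries the EGCG groups of day 8 were the highest and overlapped each other.

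Clock (chr5:76639992-76733817, minus strand) encodes the histone acetyltransferase partner of BMAL1 and moved less than most members. It was at 7.67, 8.26 and 5.96 FPKM in WAT day 4 controls and 8.30, 7.43 and 6.44 in WAT day 8 controls. With EGCG the WAT values were 7.17, 7.43 and 5.88 on day 4 and 8.73, 8.77 and 2.84 on day 8 (7.54 rescaled). Its BAT levels were 8.27, 8.52 and 6.81 on day 4 and 9.10, 8.44 and 6.70 on day 8 in controls and 8.61, 9.23 and 6.62 on day 4 and 11.7, 11.3 and 8.87 on day 8 with EGCG. BAT day 8 EGCG cells stood above all other groups in each replicate. The highest group mean was 1.58 times the lowest.

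Npas2 (chr1:39250576-39420079, plus strand), which can stand in for Clock, had its own pattern. In WAT it was at 3.24, 3.59 and 3.26 FPKM on day 4 and 4.06, 3.46 and 2.99 on day 8 in controls, and at 2.82, 2.62 and 3.05 on day 4 and 4.29, 4.59 and 1.37 on day 8 with EGCG (the last 3.64 rescaled). The BAT libraries were at 2.27, 2.07 and 1.64 on day 4 and 3.64, 3.76 and 3.77 on day 8 in controls and 1.71, 1.95 and 1.81 on day 4 and 1.79, 1.56 and 1.83 on day 8 with EGCG. On day 8 all 3 BAT control libraries lay above all 3 BAT EGCG libraries, and the BAT EGCG libraries of both days overlapped.

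Of the nuclear receptors that repress Arntl, Nr1d1 (chr11:98629246-98636647, minus strand) was at 9.94, 9.43 and 11.5 FPKM in WAT day 4 controls and 9.10, 10.1 and 12.6 in WAT day 8 controls, ranges that overlap. With EGCG the WAT values were 8.46, 8.38 and 9.12 on day 4 and 17.5, 18.5 and 8.62 on day 8 (22.9 rescaled). Levels in BAT were 6.59, 5.96 and 8.79 on day 4 and 16.2, 15.01 and 19.6 on day 8 in controls and 10.6, 10.7 and 11.5 on day 4 and 18.7, 17.1 and 20.8 on day 8 with EGCG. BAT cells thus had low Nr1d1 on day 4 in controls, intermediate levels with EGCG on day 4 and high levels on day 8 in either condition. Nr1d1 shares 263 exon bases with Thra, a thyroid hormone receptor gene on the opposite strand, and whether reads were counted by strand is not given in the sources used here. Thra was at 39.4, 40.1 and 47.4 FPKM in BAT controls of day 4 and 36.7, 33.9 and 38.6 on day 8. In WAT on day 8 it was at 30.6, 32.1 and 39.3 in controls against 33.9, 36.8 and 16.4 with EGCG, the last as deposited and not rescaled.

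Nr1d2 (chr14:19036568-19071641, minus strand) encodes the paralogue REV-ERBβ. It was at 5.40, 5.35 and 4.41 FPKM on day 4 and 7.30, 7.83 and 7.27 on day 8 in WAT controls and at 4.07, 4.56 and 3.74 on day 4 and 11.1, 10.9 and 3.52 on day 8 with EGCG (9.35 rescaled). In BAT the values were 4.74, 4.26 and 3.75 on day 4 and 10.6, 10.6 and 8.57 on day 8 in controls and 5.36, 5.23 and 5.86 on day 4 and 14.4, 14.4 and 12.4 on day 8 with EGCG. In each depot and condition every day 8 library lay above every day 4 library, with 1 exception, the third WAT EGCG library as deposited.

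Among the repressors of the loop, Per1 (chr11:68908719-68923462, plus strand), an early response gene to glucocorticoids and cAMP, had the highest level per transcript length of the members in every library. In WAT it was at 38.4, 38.5 and 33.2 FPKM on day 4 and 25.1, 26.6 and 24.2 on day 8 in controls, and at 50.0, 48.0 and 45.7 on day 4 and 29.5, 28.8 and 9.99 on day 8 with EGCG (26.5 rescaled). BAT cells held it at 25.8, 25.7 and 23.4 on day 4 and 36.8, 32.8 and 29.3 on day 8 in controls and 35.2, 31.2 and 27.7 on day 4 and 26.3, 27.7 and 24.7 on day 8 with EGCG. Levels were higher on day 4 than on day 8 in WAT in both conditions, and lower on day 4 in BAT controls.

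Per2 (chr1:93312561-93355907, minus strand) encodes a core repressor. In WAT controls it was at 4.35, 4.21 and 3.45 FPKM on day 4 and 6.86, 7.496 and 6.72 on day 8, and with EGCG at 5.19, 4.87 and 4.27 on day 4 and 3.15, 2.68 and 1.10 on day 8 (2.93 rescaled). In BAT controls it was at 2.06, 1.89 and 1.51 on day 4 and 6.50, 6.02 and 5.16 on day 8, and with EGCG at 2.43, 2.40 and 2.07 on day 4 and 3.01, 2.80 and 2.36 on day 8. On day 8 all control libraries of both depots lay above all EGCG libraries.

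Per3 (chr4:150377761-150418774, minus strand), whose loss affects rhythms less than that of Per1 or Per2, was at 1.69, 2.12 and 1.79 FPKM on day 4 and 4.63, 5.00 and 4.37 on day 8 in WAT controls and at 1.74, 2.11 and 1.49 on day 4 and 2.51, 2.68 and 0.764 on day 8 with EGCG (2.03 rescaled). Its BAT levels were 1.89, 2.16 and 1.72 on day 4 and 10.0, 9.88 and 7.61 on day 8 in controls and 1.96, 2.13 and 1.78 on day 4 and 4.35, 3.93 and 3.11 on day 8 with EGCG. The 4 day 4 groups overlapped in their order, and BAT day 8 controls stood above every other library.

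Cry1 (chr10:84594447-84647799, minus strand), a strong repressor of CLOCK and BMAL1, spanned the narrowest range of all members, 1.53 times from the lowest to the highest group mean. In WAT it was at 7.89, 8.20 and 8.02 FPKM on day 4 and 7.51, 6.59 and 6.63 on day 8 in controls and 7.76, 7.94 and 8.19 on day 4 and 5.56, 5.28 and 2.03 on day 8 with EGCG (5.39 rescaled). The BAT libraries were at 6.72, 6.94 and 7.68 on day 4 and 5.94, 6.00 and 5.65 on day 8 in controls and 6.23, 6.14 and 6.44 on day 4 and 8.20, 8.34 and 8.50 on day 8 with EGCG. On day 8 the order of control and EGCG cells was opposite in the 2 depots.

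Dbp (chr7:52960458-52965525, plus strand), the output gene, spanned the widest range, 14.4 times from the lowest to the highest group mean. In WAT it was at 1.38, 1.20 and 1.74 FPKM on day 4 and 5.42, 5.39 and 7.35 on day 8 in controls and 1.001, 1.03 and 1.81 on day 4 and 7.03, 7.35 and 3.47 on day 8 with EGCG (9.23 rescaled). Levels in BAT were 1.75, 1.79 and 2.13 on day 4 and 14.1, 14.5 and 19.0 on day 8 in controls and 1.78, 1.46 and 2.56 on day 4 and 15.1, 14.2 and 18.5 on day 8 with EGCG. Every day 8 library stood above every day 4 library, and within day 8 every BAT library stood above every WAT library. Dbp shares 491 exon bases with Sphk2, a sphingosine kinase gene on the opposite strand, which was at 7.14 to 11.3 FPKM in the tested libraries and did not pass the test between days in either depot's controls (log2 change 0.10 ± 0.057, adjusted p = 0.152 in WAT and log2 change 0.092 ± 0.057, adjusted p = 0.175 in BAT). With EGCG Sphk2 rose from day 4 to day 8 (log2 change 0.16 ± 0.057, adjusted p = 0.0311 in WAT and log2 change 0.16 ± 0.057, adjusted p = 0.0340 in BAT). Sphk2 was also higher in BAT in all 4 depot comparisons, by 0.49 (adjusted p = 3.39e-05) and 0.48 (adjusted p = 2.85e-05) in controls of days 4 and 8, and by 0.33 (adjusted p = 0.000575) and 0.33 (adjusted p = 0.000897) with EGCG. Its part in the Dbp values was not tested.

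**Figure D1:**
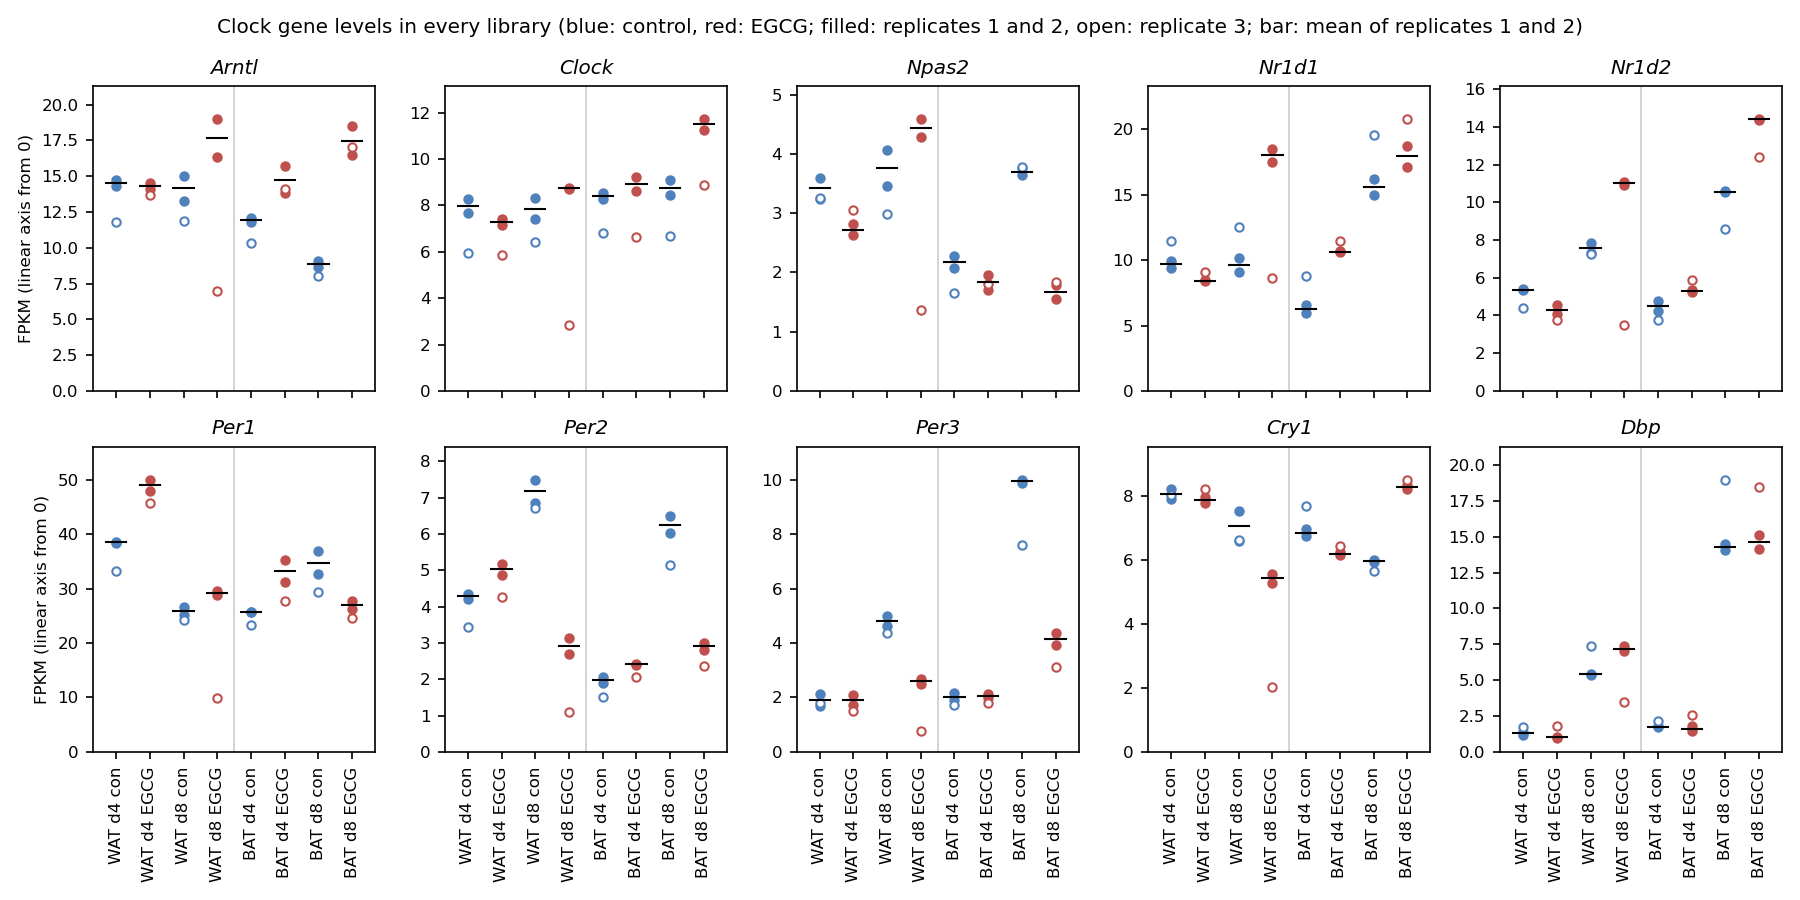
FPKM (linear axes from 0) of the 10 clock genes in each of the 24 libraries by depot, day (d4, d8) and condition (con is control), with filled points for replicates 1 and 2, open points for replicate 3 as deposited and bars for the mean of replicates 1 and 2. Dbp and Nr1d2 stand higher on day 8 than on day 4 in every group of the tested libraries, Per2 and Per3 are lower with EGCG on day 8, and the open WAT d8 EGCG point lies under both filled points of its group for every gene.

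The first comparison set day 8 against day 4 in control cells. Because the hour of collection is not given, a change of level cannot be told apart from another clock phase at collection. This limit holds for this comparison and for all those below. Changes below are log2 differences of FPKM + 1 with their SE from limma (n = 2 libraries a group). The p-values are adjusted by Benjamini-Hochberg over the 14095 genes, and a call is an adjusted p under 0.05. Folds are ratios of the mean FPKM of replicates 1 and 2 without the added 1. For low genes they are therefore larger than the log2 change beside them implies. In WAT controls 6 of 10 members passed the test, 4 higher and 2 lower on day 8, where 27.7% of all tested genes were higher and 33.2% lower. In BAT controls 9 passed, 7 higher and 2 lower, beside 28.7% and 40.4% of all genes. The median change of the members was 0.82 in BAT and 0.049 in WAT, beside -0.10 and -0.032 over all genes.

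Dbp rose most of the members in both depots, 4.19-fold in WAT (log2 change 1.48 ± 0.070, adjusted p = 1.36e-08) and 8.07-fold in BAT (log2 change 2.46 ± 0.070, adjusted p = 2.02e-10). Per3 rose 2.53-fold in WAT (log2 change 1.005 ± 0.092, adjusted p = 2.15e-06) and 4.90-fold in BAT (log2 change 1.86 ± 0.092, adjusted p = 8.13e-09). Per2 rose 1.68-fold (log2 change 0.63 ± 0.075, adjusted p = 1.80e-05) and 3.17-fold (log2 change 1.29 ± 0.075, adjusted p = 2.82e-08), and Nr1d2 1.41-fold (log2 change 0.43 ± 0.060, adjusted p = 7.35e-05) and 2.35-fold (log2 change 1.07 ± 0.060, adjusted p = 2.11e-08). Nr1d1 passed the test in BAT only, at 2.49-fold (log2 change 1.19 ± 0.067, adjusted p = 2.25e-08), and its value in WAT was -0.0096 ± 0.067, adjusted p = 0.915. Over the same days Thra, the overlapping gene, fell in BAT (log2 change -0.17 ± 0.069, adjusted p = 0.0493). Per1 went opposite ways, down in WAT (log2 change -0.56 ± 0.064, adjusted p = 1.29e-05) and up in BAT (log2 change 0.42 ± 0.064, adjusted p = 9.41e-05). Npas2 rose in BAT (log2 change 0.57 ± 0.085, adjusted p = 8.97e-05) and had a value of 0.11 ± 0.085, adjusted p = 0.299 in WAT. Arntl fell in BAT (log2 change -0.39 ± 0.084, adjusted p = 0.00134), with -0.036 ± 0.084, adjusted p = 0.734 in WAT. Clock passed in neither depot (-0.018 ± 0.062, adjusted p = 0.824 in WAT and 0.055 ± 0.062, adjusted p = 0.448 in BAT). Cry1 fell in both (log2 change -0.17 ± 0.058, adjusted p = 0.0239 in WAT and log2 change -0.17 ± 0.058, adjusted p = 0.0216 in BAT).

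The Cry1 calls were the least steady of these. In WAT the adjusted p reached 0.223 without WAT day 8 control replicate 2, and in BAT 0.101 without BAT day 4 control replicate 2, while every other call of the control day comparison held in each fit without 1 library. With the libraries scaled by median ratios, the all-gene median of BAT went from -0.10 to 0.018 and the share of higher genes among calls from 41.5% to 53.3%. Cry1 was then at -0.037 in BAT and Clock passed the test (0.19, adjusted p = 0.0158), and 8 of the 9 BAT calls held under all 3 scalings tried (as deposited, median-ratio and quantile). All 9 and all 6 called members moved the same way in replicate 3.

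The day effect itself differed between depots for 8 of 10 members, where 40% of all tested genes differed. It was more positive in BAT for Nr1d1 (difference in log2 change 1.20 ± 0.095, adjusted p = 6.02e-06), Dbp (0.98 ± 0.099, adjusted p = 2.79e-05), Per1 (0.98 ± 0.090, adjusted p = 1.52e-05), Per3 (0.85 ± 0.13, adjusted p = 0.000430), Per2 (0.66 ± 0.11, adjusted p = 0.000607), Nr1d2 (0.65 ± 0.085, adjusted p = 0.000163) and Npas2 (0.46 ± 0.12, adjusted p = 0.0105). Arntl went the other way (-0.36 ± 0.12, adjusted p = 0.0331), but its adjusted p was 0.113 under median-ratio scaling and 0.108 without WAT day 8 control replicate 1. By median ratios the share of higher genes among the calls of this difference moved from 37.1% to 54.7%. All 9 genes of a glucocorticoid response list rose from day 4 to day 8 in BAT controls, and 2 rose and 3 fell in WAT controls. The adipocyte markers rose in 8 and fell in 1 of 12 in WAT, and rose in 10 in BAT. Their part in the clock gene changes was not tested.

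The next comparison set EGCG against control on day 4, when the induction medium was withdrawn, under the same limit of the unknown hour. In WAT 6 of 10 members passed the test, 2 higher and 4 lower, where 34.4% of all tested genes were higher and 19.3% lower. In BAT 5 passed as deposited, all higher, where 27.9% were higher and 20.6% lower. All member changes on day 4 were under 2-fold.

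Per1 rose in both depots, 1.27-fold in WAT (log2 change 0.34 ± 0.064, adjusted p = 0.000798) and 1.29-fold in BAT (log2 change 0.35 ± 0.064, adjusted p = 0.000665). Nr1d1 went opposite ways, up 1.70-fold in BAT (log2 change 0.68 ± 0.067, adjusted p = 6.13e-06) and down in WAT (log2 change -0.18 ± 0.067, adjusted p = 0.0390), and the difference between depots was 0.86 ± 0.095, adjusted p = 7.22e-05. Thra was at -0.051 ± 0.069, adjusted p = 0.574 in BAT and 0.88 ± 0.069, adjusted p = 9.94e-07 in WAT. Nr1d2 likewise rose in BAT (log2 change 0.20 ± 0.060, adjusted p = 0.0180) and fell in WAT (log2 change -0.26 ± 0.060, adjusted p = 0.00310), with a difference of 0.46 ± 0.085, adjusted p = 0.00232. These 2 were the members whose EGCG effect differed between depots on day 4, where 28.1% of all genes differed.

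Arntl rose in BAT (log2 change 0.28 ± 0.084, adjusted p = 0.0161) and was at -0.020 ± 0.084, adjusted p = 0.862 in WAT. Npas2 fell in WAT (log2 change -0.25 ± 0.085, adjusted p = 0.0298) and was at -0.16 ± 0.085, adjusted p = 0.134 in BAT, and Dbp fell in WAT (log2 change -0.18 ± 0.070, adjusted p = 0.0444) and was at -0.082 ± 0.070, adjusted p = 0.365 in BAT. Per2 passed by a small margin in WAT (log2 change 0.19 ± 0.075, adjusted p = 0.0499) and in BAT (log2 change 0.20 ± 0.075, adjusted p = 0.0456). Clock, Per3 and Cry1 passed in neither depot, with changes from -0.12 (Cry1 in BAT) to 0.077 (Clock in BAT).

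Most of the WAT day 4 calls were unsteady. The count fell from 6 to 2 without WAT day 4 EGCG replicate 1, and also to 2 without its replicate 2, and to 3 without either WAT day 4 control library. Only the Per1 and Nr1d2 calls held in every fit without 1 library, while Per2 lost its call in 12 of 16 such fits, Dbp in 13, Nr1d1 in 6 and Npas2 in 3. In BAT the count fell from 5 to 2, Per1 and Nr1d1, without BAT day 4 control replicate 2, and the Arntl call was also lost without BAT day 4 EGCG replicate 1 (adjusted p = 0.146). Over the 16 fits without 1 library the BAT call of Per2 was lost in 12, that of Arntl in 3 and that of Nr1d2 in 2. Replicate 3 had the direction of 5 of the 6 WAT calls, Dbp being the exception, and of all 5 BAT calls. Median-ratio scaling moved the median of all genes in WAT from 0.087 to -0.023 and the share of higher genes among calls from 64.1% to 44.7%. Per2 was then at 0.075 (adjusted p = 0.413), 5 of the 6 WAT calls held under all 3 scalings, and Clock (-0.24, adjusted p = 0.00723) and Cry1 (-0.16, adjusted p = 0.0386) passed by median ratios. In BAT 3 of the 5 calls held, while the adjusted p by median ratios was 0.0575 for Nr1d2 and 0.0837 for Per2. The BAT calls were then no longer all higher, with 3 higher and 1 lower by median ratios and 3 higher and 2 lower by quantiles. By median ratios the EGCG effect of Arntl and Clock also differed between depots, and the share of higher genes among the calls of that difference moved from 42.7% to 61.5%.

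On day 8 the EGCG comparison gave larger changes. In WAT 8 of 10 members passed, 5 higher and 3 lower, where 44.7% of all tested genes were higher and 18.9% lower. In BAT 9 passed, 5 higher and 4 lower, where 46.5% were higher and 26.1% lower. The median change over all genes was 0.17 in each depot and 0.0055 (WAT) and 0.019 (BAT) after median-ratio scaling, which also moved the share of higher genes among calls from 70.3% to 51.2% in WAT and from 64.0% to 51.8% in BAT. Median-ratio values are therefore given beside those as deposited.

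Per2 fell in both depots, 2.46-fold lower in WAT (log2 change -1.06 ± 0.075, adjusted p = 2.25e-07, median-ratio -1.23) and 2.15-fold lower in BAT (log2 change -0.89 ± 0.075, adjusted p = 4.62e-07, median-ratio -1.05). Per3 fell too, 1.85-fold in WAT (log2 change -0.69 ± 0.092, adjusted p = 3.98e-05, median-ratio -0.85) and 2.40-fold in BAT (log2 change -1.09 ± 0.092, adjusted p = 4.85e-07, median-ratio -1.26). These 4 calls held in every fit tried. BAT minus WAT of the effect on Per3 was -0.40 ± 0.13, adjusted p = 0.0300, a difference that was not called without BAT day 8 EGCG replicate 2 (adjusted p = 0.107), and the effect on Per2 differed by 0.17 ± 0.11, adjusted p = 0.230.

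Arntl rose 1.97-fold in BAT (log2 change 0.90 ± 0.084, adjusted p = 1.20e-06, median-ratio 0.73) and 1.25-fold in WAT (log2 change 0.30 ± 0.084, adjusted p = 0.00840), where the median-ratio value was 0.11 (adjusted p = 0.283) and the adjusted p without WAT day 8 EGCG replicate 1 was 0.0993. The difference between depots was 0.61 ± 0.12, adjusted p = 0.00196. Nr1d2 rose in both, 1.46-fold in WAT (log2 change 0.49 ± 0.060, adjusted p = 2.18e-05, median-ratio 0.31) and 1.36-fold in BAT (log2 change 0.41 ± 0.060, adjusted p = 5.75e-05, median-ratio 0.23), with a difference of -0.075 ± 0.085, adjusted p = 0.520. Nr1d1 rose 1.87-fold in WAT (log2 change 0.84 ± 0.067, adjusted p = 6.11e-07, median-ratio 0.66). In BAT Nr1d1 was called higher as deposited (log2 change 0.19 ± 0.067, adjusted p = 0.0237) but stood at 0.0073 after median-ratio scaling and lost its call without BAT day 8 EGCG replicate 1 (adjusted p = 0.186). BAT minus WAT of the Nr1d1 effect was -0.65 ± 0.095, adjusted p = 0.000270. Thra was at 0.17 ± 0.069, adjusted p = 0.0496 in WAT and -0.52 ± 0.069, adjusted p = 2.44e-05 in BAT.

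Cry1 and Npas2 split by depot. Cry1 fell in WAT (log2 change -0.33 ± 0.058, adjusted p = 0.000404, median-ratio -0.50) and rose in BAT (log2 change 0.41 ± 0.058, adjusted p = 4.31e-05, median-ratio 0.24), a difference of 0.74 ± 0.082, adjusted p = 4.02e-05. Npas2 fell 2.21-fold in BAT (log2 change -0.82 ± 0.085, adjusted p = 3.37e-06, median-ratio -0.95) and was at 0.20 ± 0.085, adjusted p = 0.0645 in WAT (median-ratio 0.034), a difference of -1.01 ± 0.12, adjusted p = 6.57e-05. Per1 fell in BAT (log2 change -0.35 ± 0.064, adjusted p = 0.000337, median-ratio -0.54). In WAT the Per1 call (log2 change 0.17 ± 0.064, adjusted p = 0.0353) was lost in 3 of 16 fits without 1 library and changed sign with scaling, to -0.026 by median ratios and -0.027 by quantiles. The depot difference for Per1 was -0.52 ± 0.090, adjusted p = 0.000865. Clock rose in BAT (log2 change 0.36 ± 0.062, adjusted p = 0.000252, median-ratio 0.18) and was at 0.14 ± 0.062, adjusted p = 0.0710 in WAT.

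Dbp rose with EGCG in WAT (log2 change 0.35 ± 0.070, adjusted p = 0.000853, median-ratio 0.18) and did not pass in BAT (0.032 ± 0.070, adjusted p = 0.697, median-ratio -0.15). In the fit of all 24 libraries with the table as a term, the BAT value was -0.19 with an adjusted p of 0.00875, so its direction depended on the scaling and the libraries used. The depot difference for Dbp was -0.32 ± 0.099, adjusted p = 0.0231 (adjusted p = 0.0903 without BAT day 8 EGCG replicate 2). In all, 7 members had an EGCG effect that differed between depots on day 8, where 39.2% of all genes differed, and all 7 held under the 3 scalings. Under those scalings 6 of the 8 WAT calls and 8 of the 9 BAT calls held as well. All 9 BAT calls had the same direction in replicate 3. In WAT 3 of 8 did as deposited and 8 of 8 after rescaling of the third EGCG library to the tested ones. The rescaled count is thus not independent of the tested libraries, and Per1, at 0.13 after rescaling, is among the 8. The 12 adipocyte markers had median changes of -4.74 in WAT and -4.63 in BAT on the same day, and the part of this in the clock gene changes was not tested.

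**Figure D2:**
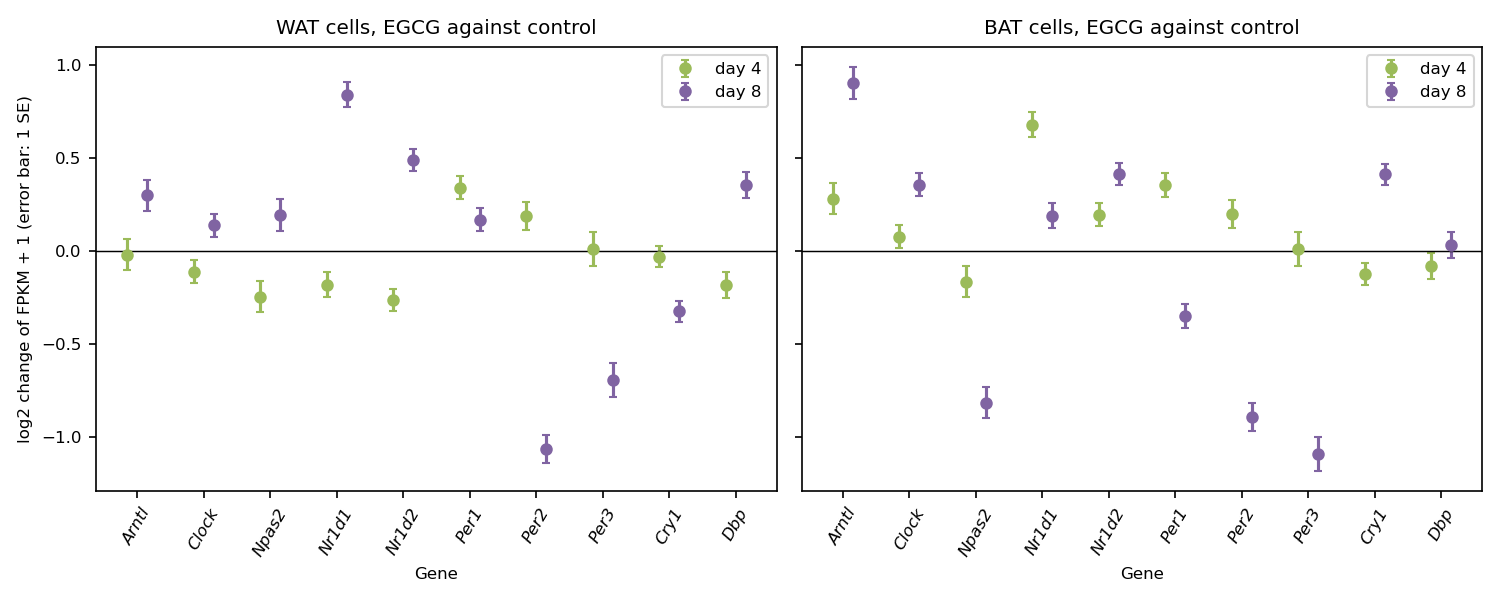
Log2 change of FPKM + 1 with EGCG against control for each clock gene in WAT cells (left) and BAT cells (right), with 1 SE as error bars, on day 4 (green) and day 8 (purple). Per2 and Per3 are near or above 0 on day 4 and between -0.69 and -1.09 on day 8 in both panels, and Cry1 and Npas2 point opposite ways in the panels on day 8 (Npas2 in WAT, at 0.20, did not pass).

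The EGCG effect differed between days for 9 of 10 members in WAT, where 49.4% of all tested genes differed, and for 9 in BAT, where 55.4% did. Per2 had the largest shift in WAT, from 0.19 on day 4 to -1.06 on day 8 (difference -1.25 ± 0.11, adjusted p = 3.93e-06), and it shifted down in BAT too (-1.09 ± 0.11, adjusted p = 6.19e-06), as did Per3 (-1.10 ± 0.13, adjusted p = 2.65e-05). Per3 shifted down in WAT (-0.70 ± 0.13, adjusted p = 0.000959). Nr1d1 shifted up in WAT (1.02 ± 0.095, adjusted p = 7.56e-06) and down in BAT (-0.49 ± 0.095, adjusted p = 0.000999), and Nr1d2 shifted up in WAT (0.75 ± 0.085, adjusted p = 3.10e-05). In BAT the shift of Nr1d2 (0.22 ± 0.085, adjusted p = 0.0479) was not called under median-ratio scaling (0.076, adjusted p = 0.508) nor in 11 of 16 fits without 1 library. Cry1 shifted down in WAT (-0.29 ± 0.082, adjusted p = 0.0113) and up in BAT (0.54 ± 0.082, adjusted p = 0.000187), while Npas2 did the reverse (0.44 ± 0.12, adjusted p = 0.0104 in WAT and -0.65 ± 0.12, adjusted p = 0.000743 in BAT). Per1 shifted down in BAT (-0.70 ± 0.090, adjusted p = 4.75e-05), with a value of -0.17 ± 0.090, adjusted p = 0.134 in WAT, Arntl shifted up in BAT (0.62 ± 0.12, adjusted p = 0.000919), and Dbp shifted up in WAT (0.54 ± 0.099, adjusted p = 0.000942), with 0.11 ± 0.099, adjusted p = 0.356 in BAT.

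The shifts of Clock in both depots (0.25 ± 0.088, adjusted p = 0.0344 in WAT and 0.28 ± 0.088, adjusted p = 0.0180 in BAT) and of Arntl in WAT (0.32 ± 0.12, adjusted p = 0.0439) were called as deposited but not by median ratios, where the adjusted p was 0.0876, 0.194 and 0.0885. Without 1 library the adjusted p reached 0.120 for Clock in WAT (WAT day 8 control replicate 2), 0.0719 for Clock in BAT (BAT day 4 EGCG replicate 1) and 0.177 for Arntl (WAT day 8 EGCG replicate 1). In BAT the median shift of all genes was 0.13 as deposited and 0.010 by median ratios, and the share of higher genes among calls moved from 62.8% to 49.3%.

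Between day 4 and day 8 in cells kept with EGCG, all 10 members passed the test in WAT, 7 higher and 3 lower, where 31.8% of all genes were higher and 27.7% lower. In BAT 9 passed, 8 higher and 1 lower, where 29.7% were higher and 28.2% lower. Dbp rose here as well, 7.07-fold in WAT (log2 change 2.02 ± 0.070, adjusted p = 2.01e-09) and 9.02-fold in BAT (log2 change 2.58 ± 0.070, adjusted p = 6.83e-10), while the adipocyte markers fell over these days in 10 of 12 cases in WAT and 11 of 12 in BAT. Nr1d2 rose 2.55-fold (log2 change 1.18 ± 0.060, adjusted p = 2.68e-08) and 2.72-fold (log2 change 1.29 ± 0.060, adjusted p = 1.20e-08) and Nr1d1 2.14-fold (log2 change 1.01 ± 0.067, adjusted p = 1.82e-07) and 1.68-fold (log2 change 0.70 ± 0.067, adjusted p = 3.66e-06). Thra fell over the same days (log2 change -0.46 ± 0.069, adjusted p = 0.000133 in WAT and log2 change -0.64 ± 0.069, adjusted p = 9.36e-06 in BAT). Per3 rose 2.02-fold in BAT (log2 change 0.75 ± 0.092, adjusted p = 2.56e-05) and 1.35-fold in WAT (log2 change 0.30 ± 0.092, adjusted p = 0.0141), the latter not called without WAT day 4 EGCG replicate 1 (adjusted p = 0.122). Per2 fell in WAT (log2 change -0.62 ± 0.075, adjusted p = 2.16e-05) and rose slightly in BAT (log2 change 0.19 ± 0.075, adjusted p = 0.0440), where the call was lost in 8 of 16 fits without 1 library.

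Per1 fell in both (log2 change -0.73 ± 0.064, adjusted p = 1.59e-06 in WAT and log2 change -0.28 ± 0.064, adjusted p = 0.00230 in BAT). Cry1 fell in WAT (log2 change -0.46 ± 0.058, adjusted p = 2.99e-05) and rose in BAT (log2 change 0.37 ± 0.058, adjusted p = 0.000194). Npas2 rose in WAT (log2 change 0.55 ± 0.085, adjusted p = 0.000172) and was at -0.083 ± 0.085, adjusted p = 0.433 in BAT. Clock rose in both (log2 change 0.23 ± 0.062, adjusted p = 0.00704 and log2 change 0.34 ± 0.062, adjusted p = 0.000656), and so did Arntl (log2 change 0.28 ± 0.084, adjusted p = 0.0126 and log2 change 0.23 ± 0.084, adjusted p = 0.0346), with an adjusted p of 0.135 without WAT day 8 EGCG replicate 1 and 0.253 without BAT day 4 EGCG replicate 2. Replicate 3 had the same direction for all 9 BAT calls, and for 4 of 10 WAT calls as deposited and 10 of 10 after rescaling.

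**Figure D3:**
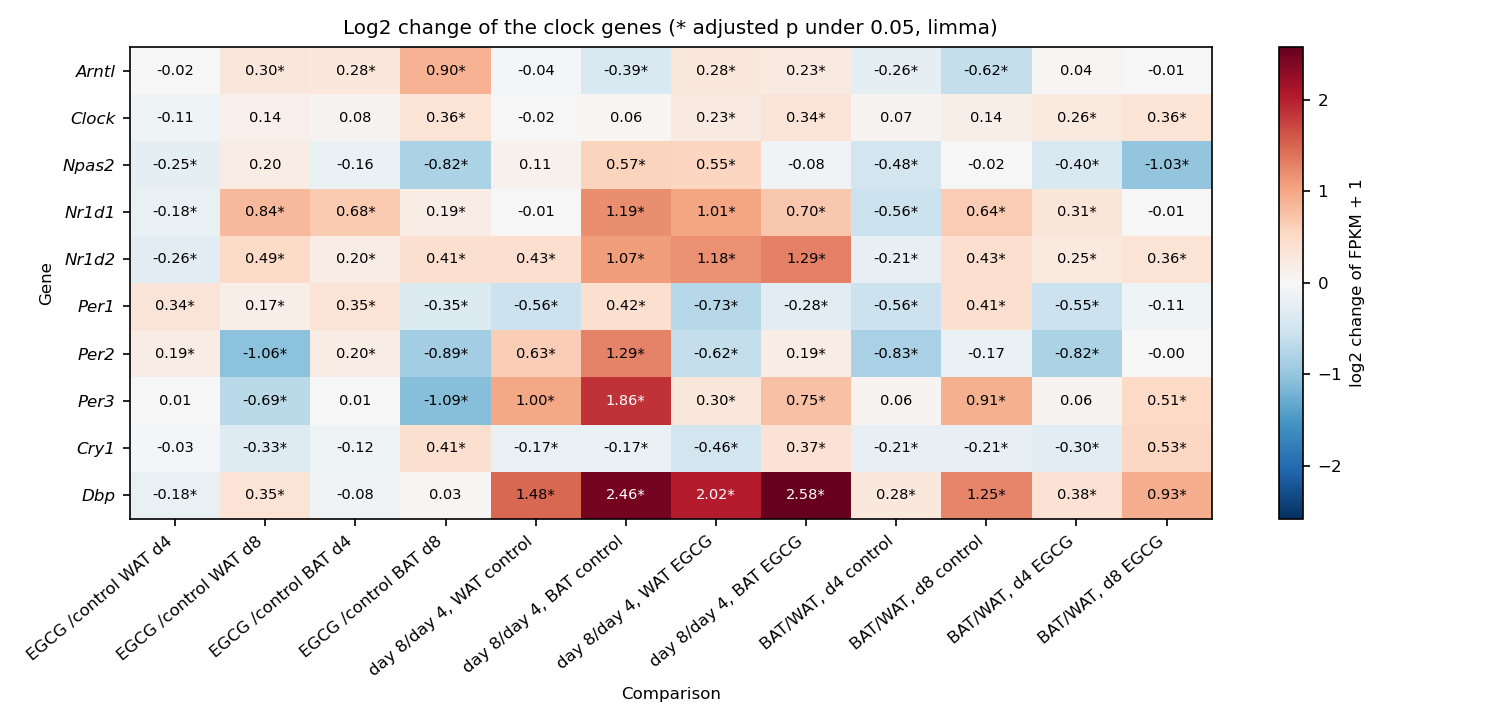
Log2 change of FPKM + 1 of the 10 clock genes in the 12 pairwise comparisons (red higher and blue lower in the first-named group, d4 and d8 are days 4 and 8), with an asterisk for an adjusted p under 0.05 by limma. The Dbp row is red from day 4 to day 8, from 1.48 to 2.58, the highest value shown, and Per3 is at 1.86 in BAT controls. Per2 and Per3 are blue with EGCG on day 8 in both depots, and Per3 in BAT, at -1.09, is the lowest value shown.

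The depots were compared next, on the same day and in the same condition. On day 4 in controls 8 of 10 members differed, 1 higher and 7 lower in BAT, where 41.4% of all genes were higher and 14.4% lower. On day 8 in controls 7 differed, 5 higher and 2 lower, where 31.6% were higher and 22% lower. With EGCG 8 differed on day 4, 4 each way, where 32.9% were higher and 15.8% lower, and 6 differed on day 8, 5 higher and 1 lower, where 24.4% were higher and 14% lower.

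In day 4 controls Per2 was 2.16-fold lower in BAT (log2 change -0.83 ± 0.075, adjusted p = 4.95e-06), Per1 1.50-fold lower (log2 change -0.56 ± 0.064, adjusted p = 2.45e-05), Nr1d1 1.54-fold lower (log2 change -0.56 ± 0.067, adjusted p = 4.03e-05) and Npas2 1.57-fold lower (log2 change -0.48 ± 0.085, adjusted p = 0.000633). Arntl (-0.26 ± 0.084, adjusted p = 0.0204), Nr1d2 (-0.21 ± 0.060, adjusted p = 0.0103) and Cry1 (-0.21 ± 0.058, adjusted p = 0.00996) were lower by less. Without WAT day 4 control replicate 2 the count fell from 8 to 5, and the Arntl, Cry1 and Dbp calls were lost. Nr1d2 lost its call without BAT day 4 control replicate 2 (adjusted p = 0.0982). Dbp was the only member called higher in BAT (log2 change 0.28 ± 0.070, adjusted p = 0.00595), and its adjusted p was 0.0578 by median ratios, a scaling that moved the median of all genes from 0.15 to 0.016 and the share of higher genes among calls from 74.3% to 51.5%. The other 7 calls held under all 3 scalings. Sphk2, which overlaps Dbp, was at 0.49 in the same comparison, and Thra, which overlaps Nr1d1, at 0.59 ± 0.069, adjusted p = 3.27e-05.

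By day 8 the order had turned for several members. In controls Dbp was 2.64-fold higher in BAT (log2 change 1.25 ± 0.070, adjusted p = 7.39e-08), Per3 2.07-fold (log2 change 0.91 ± 0.092, adjusted p = 6.91e-06), Nr1d1 1.62-fold (log2 change 0.64 ± 0.067, adjusted p = 9.17e-06), Nr1d2 1.40-fold (log2 change 0.43 ± 0.060, adjusted p = 8.70e-05) and Per1 1.35-fold (log2 change 0.41 ± 0.064, adjusted p = 0.000188). Arntl was lower (log2 change -0.62 ± 0.084, adjusted p = 7.76e-05) and so was Cry1 (log2 change -0.21 ± 0.058, adjusted p = 0.0103), the latter with an adjusted p of 0.101 without WAT day 8 control replicate 1. Per2 was at -0.17 ± 0.075, adjusted p = 0.0730 and passed by median ratios (-0.22, adjusted p = 0.0259), Npas2 at -0.016 ± 0.085, adjusted p = 0.889 and Clock at 0.14 ± 0.062, adjusted p = 0.0764. Sphk2 was at 0.48 and Thra at 0.17 ± 0.069, adjusted p = 0.0592. With EGCG the Arntl difference between depots on day 8 was -0.013 ± 0.084, adjusted p = 0.922.

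With EGCG on day 4, BAT cells had lower Per2 (log2 change -0.82 ± 0.075, adjusted p = 4.76e-06), Per1 (log2 change -0.55 ± 0.064, adjusted p = 2.88e-05), Npas2 (log2 change -0.40 ± 0.085, adjusted p = 0.00252) and Cry1 (log2 change -0.30 ± 0.058, adjusted p = 0.00122), and higher Dbp (log2 change 0.38 ± 0.070, adjusted p = 0.000959) and Nr1d1 (log2 change 0.31 ± 0.067, adjusted p = 0.00283). Clock (0.26 ± 0.062, adjusted p = 0.00526) and Nr1d2 (0.25 ± 0.060, adjusted p = 0.00549) were also called higher, but not after quantile normalization, and each lost its call without 1 library (adjusted p = 0.0508 for Clock without BAT day 4 EGCG replicate 2 and 0.0564 for Nr1d2 without WAT day 4 EGCG replicate 1). With EGCG on day 8, Npas2 was 2.66-fold lower in BAT (log2 change -1.03 ± 0.085, adjusted p = 4.71e-06). Dbp (log2 change 0.93 ± 0.070, adjusted p = 2.15e-06), Cry1 (log2 change 0.53 ± 0.058, adjusted p = 3.46e-05), Per3 (log2 change 0.51 ± 0.092, adjusted p = 0.00107), Nr1d2 (log2 change 0.36 ± 0.060, adjusted p = 0.000692) and Clock (log2 change 0.36 ± 0.062, adjusted p = 0.000882) were higher, and Per2 was at -0.0015 ± 0.075, adjusted p = 0.991. Replicate 3 had the direction of all 8, 7 and 8 calls in the first 3 depot comparisons, and of 5 of 6 on day 8 with EGCG as deposited and 6 of 6 after rescaling. Thra was lower in BAT with EGCG on day 4 (log2 change -0.34 ± 0.069, adjusted p = 0.00158) and on day 8 (log2 change -0.52 ± 0.069, adjusted p = 0.000131). The share of higher genes among calls moved from 67.6% to 56.9% by median ratios on day 4 with EGCG.

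Other clock-related genes were described from a list of 22, of which 19 passed the filter (Ciart through the older symbol Gm129). With EGCG 8 rose and 1 fell in WAT on day 4, where 34.4% of all tested genes were higher and 19.3% lower. On day 8 in WAT 6 rose and 6 fell, where 44.7% were higher and 18.9% lower. In BAT 7 rose and 3 fell on day 4, where 27.9% were higher and 20.6% lower. On day 8 in BAT 7 rose and 9 fell, where 46.5% were higher and 26.1% lower. From day 4 to day 8, 8 rose and 4 fell in WAT controls, where 27.7% of all tested genes were higher and 33.2% lower. In BAT controls 10 rose and 4 fell, where 28.7% were higher and 40.4% lower. Their median changes were 0.10, 0.020, 0.17, -0.12, 0.10 and 0.17 in the same order, beside 0.087, 0.17, 0.032, 0.17, -0.032 and -0.10 over all genes.

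Bhlhe40, which encodes the E-box repressor DEC1, had the highest change with EGCG in 3 of the 4 comparisons. It was at 20.6, 19.3 and 22.6 FPKM in WAT day 4 controls and 72.4, 68.1 and 81.2 with EGCG (log2 change 1.77 ± 0.061, adjusted p = 1.75e-09). On WAT day 8 the values were 23.97, 22.2 and 24.5 and 49.2, 49.5 and 23.1 (log2 change 1.06 ± 0.061, adjusted p = 4.64e-08), and on BAT day 4 22.8, 20.8 and 22.4 and 48.8, 45.9 and 54.9 (log2 change 1.09 ± 0.061, adjusted p = 8.33e-08). All EGCG libraries stood above all controls except the third of WAT day 8 as deposited. Its relative Bhlhe41 (DEC2) had the lowest change in WAT on day 4, from 7.43, 6.60 and 6.44 to 3.63, 3.03 and 3.59 FPKM (log2 change -0.89 ± 0.12, adjusted p = 7.28e-05), and the highest in BAT on day 8, from 1.91, 1.92 and 2.30 to 7.59, 7.31 and 7.05 (log2 change 1.53 ± 0.12, adjusted p = 2.46e-07). It also fell most from day 4 to day 8 in WAT controls, to 1.81, 1.13 and 1.38 (log2 change -1.71 ± 0.12, adjusted p = 2.37e-07).

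Nampt, whose enzyme makes NAD+ and is a clock output, fell most in BAT on day 4, from 39.1, 43.2 and 46.5 to 23.8, 25.5 and 23.3 FPKM (log2 change -0.71 ± 0.21, adjusted p = 0.0134). Timeless, a replication fork gene named after its fly relative, fell most in BAT controls from day 4 to day 8, from 5.45, 5.43 and 5.05 to 3.58, 4.20 and 3.45 (log2 change -0.40 ± 0.083, adjusted p = 0.00109).

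**Figure D4:**
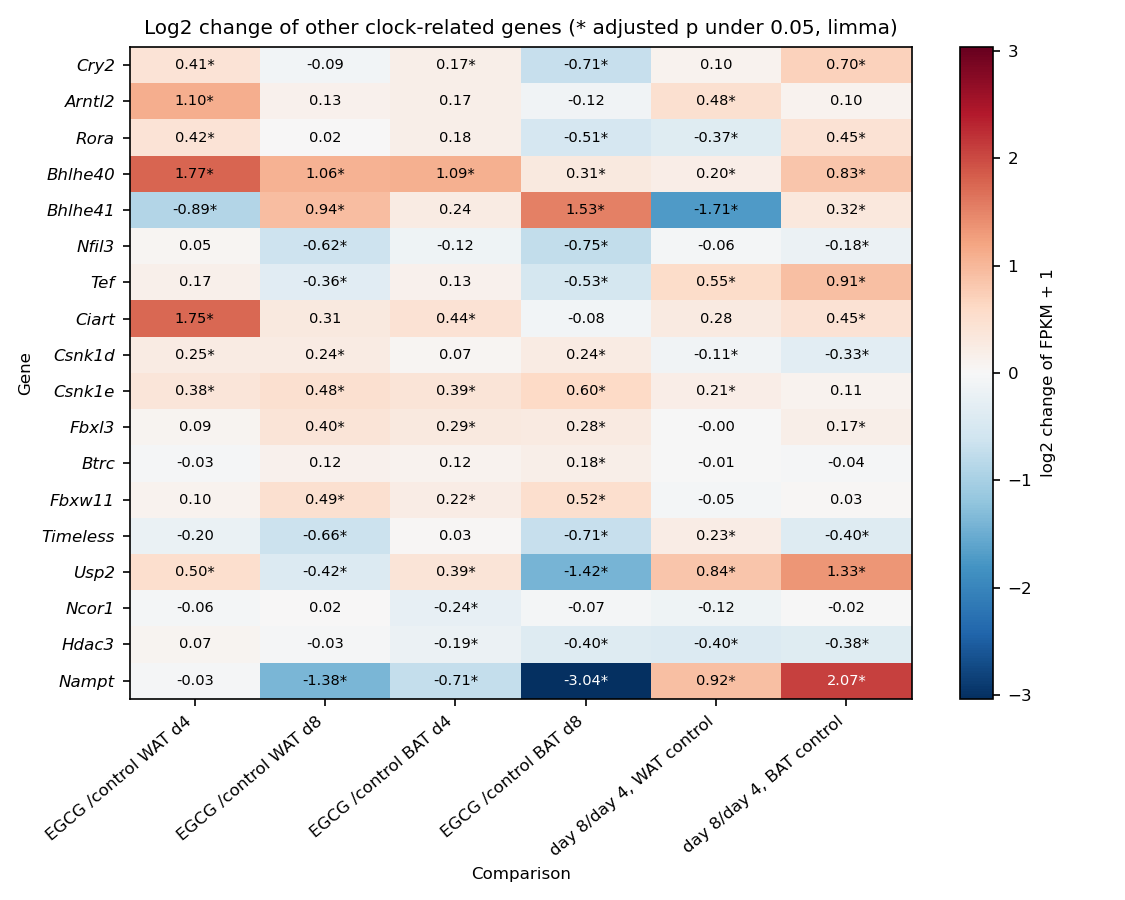
Log2 change of FPKM + 1 of 18 of the 19 tested genes of the other clock list with EGCG (4 comparisons) and from day 4 to day 8 in controls (2 comparisons), with an asterisk for an adjusted p under 0.05 by limma, red higher and blue lower. Bhlhe40 is red in all 4 EGCG columns, most in WAT on day 4 (1.77), and Bhlhe41 is red with EGCG in BAT on day 8 (1.53) and blue over time in WAT controls (-1.71).

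Among the members, levels moved together in some pairs and not in others. Over the 16 tested libraries, which are 8 groups of 2 and so not independent points, Pearson's r of log2(FPKM + 1) was 0.95 for Nr1d2 and Dbp, 0.92 for Nr1d1 and Nr1d2, 0.82 for Per3 and Dbp and 0.81 for Nr1d1 and Dbp. It was lowest for Arntl and Per3, at -0.54. In the 8 libraries of replicate 3, with the third WAT day 8 EGCG library rescaled, the same pairs were at 0.93, 0.93, 0.79, 0.89 and -0.52. Within a library the ratio of 2 genes does not depend on its scaling. In the tested libraries of day 8 the log2 ratio of Per3 to Dbp was between -0.55 and -0.11 in controls and between -1.85 and -1.45 with EGCG. In those of day 4 it was between 0.11 and 0.82 in controls and between 0.14 and 1.03 with EGCG. The log2 ratio of Per2 to Dbp in tested WAT libraries of day 8 was 0.34 to 0.48 in controls and -1.45 to -1.16 with EGCG. In tested BAT libraries of day 8 it was -1.27 to -1.12 in controls and -2.34 to -2.33 with EGCG.

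**Figure D5:**
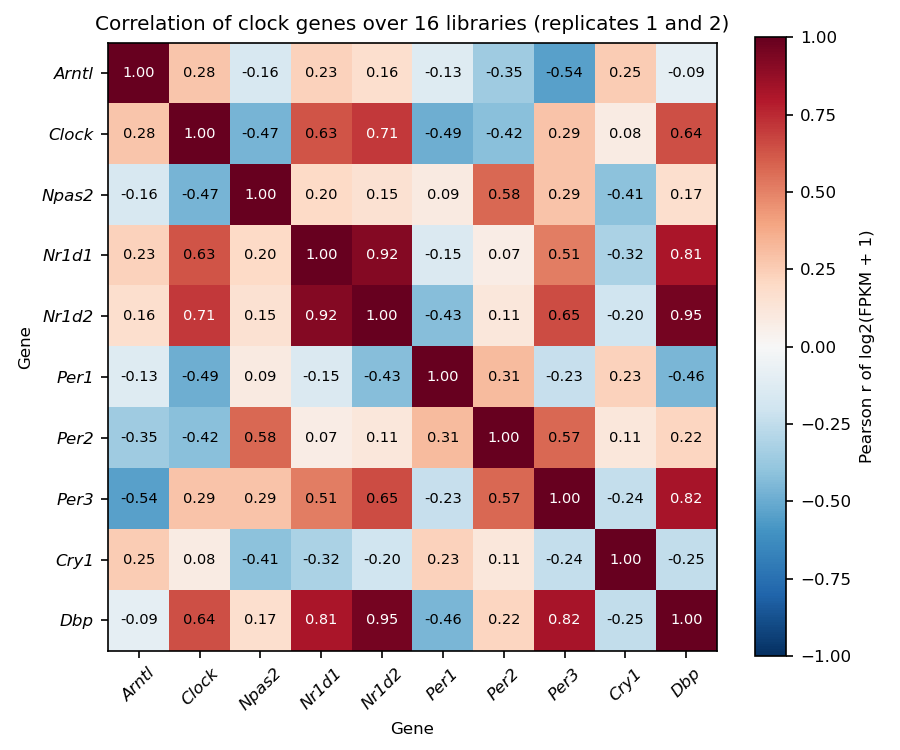
Pearson's r of log2(FPKM + 1) between the 10 clock genes over the 16 tested libraries (8 groups of 2), from blue (negative) to red (positive). The highest value is 0.95 for Nr1d2 with Dbp, followed by 0.92 for Nr1d1 with Nr1d2, and Arntl with Per3 is lowest at -0.54.

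The genes whose pattern was most like each member's were sought among 8697 tested genes with a mean of at least 5 FPKM, by Pearson's r over the same 16 libraries, a description without a test. Dbp was nearest to Mtmr9 and Sh3glb1 (both 0.98), Per3 to Sncg (0.99) and Gpd2 (0.97), Nr1d2 to Myo1c and Klf2 (both 0.97) and Nr1d1 to Plin3 (0.96) and Tex264 (0.95). Arntl was nearest to Lima1 and Man1c1 (both 0.96), Clock to Prkci (0.95) and Picalm (0.93), Per1 to Rora (0.91) and Errfi1 (0.90), and Npas2 to Ccdc152 (0.90) and Klf9 (0.88). Per2 was nearest to 2010109K11Rik (0.89) and Plekha5 (0.88), and Cry1 to Rnf138 (0.85) and Snora41 (0.78). In the 8 libraries of replicate 3, again with the third WAT day 8 EGCG library rescaled, r for these pairs was 0.88 to 0.98. The exceptions were Npas2 with Ccdc152 (0.11) and Cry1 with Snora41, which had no spread there.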

How the data were processed

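The authors deposited FPKM for 37310 genes in 2 tables, 1 with replicates 1 and 2 (16 libraries) and 1 with replicate 3 (8 libraries), which were scaled separately. The submitters' processing notes name FastQC 0.11.9, HISAT2 2.2.0, HTSeq 0.11 and the build mm9. Their settings, and whether reads were counted by strand, are not given in the sources used here. The low FPKM are whole multiples of 1 read, and reads recovered from them were whole for 100% of values within 0.01.

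Genes with at least 1 FPKM in at least 2 of the 16 libraries were kept. log2(FPKM + 1), a scale that understates the change of low genes, was fitted with limma 3.58.1 (R 4.3.3, mean-variance trend) over the 8 groups, with 8 residual degrees of freedom, 12 pairwise contrasts and 5 differences of effects, each adjusted by Benjamini-Hochberg over all tested genes. The fit was tested on simulated data with known changes in few genes, evenly up and down. Changes in these data were far wider and often uneven, so the simulation cannot show how scaling acts on the calls. Descriptions used Python 3.11.15, pandas 2.3.3 and numpy 2.4.6. Replicate 3 entered no main test.

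Gene coordinates are those of GENCODE for NCBIM37 and promoters those of RefSeq for GRCm38.p6, which were not mixed. Named genes are the members, the overlapping neighbours, the other clock genes with the highest and lowest change in each EGCG and control day comparison, and the 2 genes most like each member. A gene of the other clock list that the rule names is counted but not reported here. The members and all gene lists were chosen with earlier results of these data known. Alternatives were a pseudocount of 0.1, no filter, median-ratio and quantile scaling, voom on the recovered reads, a replicate block, both tables with the table as a term, and leaving out each library. Rescaling the third WAT day 8 EGCG library, and both tables without it, were added after seeing the data.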

Additional observations from a re-analysis of the deposited data

Results flagged for a closer look

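Effects of the same contrast that differed between depots or days by limma's test of the difference itself are listed here, as differences in log2 change, with no explanation weighed. For the EGCG effect on day 4, BAT minus WAT was 0.86 for Nr1d1 and 0.46 for Nr1d2. On day 8 it was 0.61 for Arntl, -1.01 for Npas2, -0.65 for Nr1d1, -0.52 for Per1, -0.40 for Per3, 0.74 for Cry1 and -0.32 for Dbp. Nr1d1 therefore had a depot difference of one sign on day 4 and of the other on day 8.

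Day 8 minus day 4 of the EGCG effect in WAT was 0.32 for Arntl, 0.25 for Clock, 0.44 for Npas2, 1.02 for Nr1d1, 0.75 for Nr1d2, -1.25 for Per2, -0.70 for Per3, -0.29 for Cry1 and 0.54 for Dbp. In BAT it was 0.62 for Arntl, 0.28 for Clock, -0.65 for Npas2, -0.49 for Nr1d1, 0.22 for Nr1d2, -0.70 for Per1, -1.09 for Per2, -1.10 for Per3 and 0.54 for Cry1.

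The change from day 4 to day 8 in controls, BAT minus WAT, was -0.36 for Arntl, 0.46 for Npas2, 1.20 for Nr1d1, 0.65 for Nr1d2, 0.98 for Per1, 0.66 for Per2, 0.85 for Per3 and 0.98 for Dbp.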

How the results depend on the processing

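Leaving aside the fits that drop each tested library in turn, the number of members called moved by over 1.5 times under 3 settings. It was 2 of 10 for EGCG in WAT on day 4 with no filter (6 with it). For EGCG in WAT on day 8 it was 5 over both tables without the third WAT day 8 EGCG library (8 as reported). For the depot difference of EGCG on day 4 it was 4 with median-ratio scaling (2 as reported). Leaving out each library gave 2 to 5, 6 to 9, 2 to 6 and 8 to 9 called members for EGCG in WAT on days 4 and 8 and in BAT on days 4 and 8, with the lone sample of a group assumed to vary like the other groups. It gave 5 to 6, 8 to 9, 8 to 10 and 7 to 9 between days (WAT control, BAT control, WAT EGCG, BAT EGCG) and 5 to 8, 7, 7 to 8 and 6 between depots (day 4 and day 8 controls, day 4 and day 8 EGCG). For the differences of effects it gave 2, 5 to 8, 7 to 9, 7 to 9 and 7 to 8. Among values called in at least 1 of the fits compared, signs reversed for Per1 with EGCG in WAT on day 8 (-0.026 with median ratios, -0.027 with quantiles, -0.069 over both tables, -0.065 over both without that library), for Nr1d1 (-0.043 and -0.039 over both tables with and without it) and Dbp (-0.19 and -0.18) with EGCG in BAT on day 8, and for the day difference of the EGCG effect on Nr1d2 in BAT (-0.0024 and -6.6e-05). The causes were not tested.

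Values called in neither fit also changed sign, 10 with median ratios, 9 with quantiles, 13 and 12 over both tables with and without that library, 2 with voom, 1 with a pseudocount of 0.1 and 37 over the fits without 1 library. They include Dbp with EGCG in BAT on day 8 (0.032 as reported, -0.15 with median ratios, -0.11 with quantiles), Clock with EGCG in WAT on day 8 (0.14 as reported, -0.041 with median ratios) and Clock between depots in day 4 controls (0.068 as reported, -0.080 with median ratios and -0.077 with quantiles). Of 170 member values, those that stayed on the same side of the threshold, with no change of sign in a called value, numbered 166 with a pseudocount of 0.1, 158 with no filter, 148 with median ratios, 149 with quantiles, 163 with voom and 154 over both tables. With the replicate block 169 did and 1 lost its call, and the count for EGCG in WAT on day 4 was 6. No strong shift shared by replicate number was seen: differences between replicates 2 and 1 correlated at -0.079 to 0.081 over 28 pairs of groups. This cannot show whether same-numbered cultures came from a shared isolation. Precision is limited by 2 libraries a group and, for Dbp on day 4, by as few as 79 reads.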
